A study of Mus musculus with 9 samples.

Results

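RSC96 cells, a rat Schwann cell line, were compared after medium conditioned by MenSCs, stem cells taken from menstrual blood, and under control conditions. The members are all rows of the authors' table for that pair of groups, 405 of the 819 genes that stand in any of the 3 tables of the series. The treated group (M-SCs) and the control group (SCs) had 3 libraries each, and one more group given MenSC exosomes (E-SCs, 3 libraries) is used only for values set beside them. Going by the titles, the control cells were kept together with control MenSCs, while the design text calls them control SCs, so SCs cannot be taken as untreated. No dose, treatment time or passage is given, and RSC96 is 1 established line. Separate cultures are not stated for the libraries, so p-values measure no more than the spread between libraries, and that spread may be technical. The labels name the mouse as organism, but all 405 identifiers were rat Ensembl identifiers.

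Schwann cells ensheathe and myelinate peripheral axons, and after nerve injury they turn to a repair state in which they clear myelin, secrete trophic factors and call in leukocytes through chemokines. NF-kB and C/EBP transcription factors drive many chemokine, acute-phase and antimicrobial genes, together with feedback inhibitors that end the response. Hypoxia-inducible factors raise genes of glycolysis, lactate export and vessel growth, and the integrated stress response raises genes such as Atf3 and Trib3 when protein synthesis or nutrients are limited.

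The authors had already selected the listed genes on these same 6 libraries. The smallest listed log2 difference was 1.0 in size and the largest authors' p in their deposited table was 0.0484. Counts of calls below are therefore a description, and a gene that is not listed was not shown to be unchanged. Differences are the mean of M-SCs minus the mean of SCs on the authors' log2(scaled count + 1) scale, on which the change of genes with few reads is understated. Scaled counts are the authors' reads scaled to a common depth, and FPKM (fragments scaled by transcript length and depth) is used to compare levels between genes. In bulk RNA, fewer cells of a type and less RNA per cell cannot be told apart.

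Of the 405 genes 246 were higher and 159 lower in M-SCs. With limma's test, adjusted over all 405 rows, 337 passed 0.05 (83.2%), 204 of them higher (50.4%) and 133 lower (32.8%). When every library was set to the same median over the listed genes, which moved the differences by -0.50, the split became 135 higher and 154 lower, and 289 genes passed. Those medians are of genes chosen for differing, and which scaling is nearer the truth cannot be read from selected genes. The groups did not overlap for 336 genes (83.0%), and 285 (70.4%) were below an FDR of 0.05 in the authors' deposited table. Limma's test passed 64 genes that were at an FDR of 0.05 or more there. It did not pass 12 genes that were below that FDR.

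In 178 genes the mean FPKM of a group reached 1 (105 higher and 73 lower), of which 166 passed limma's test (93.3%), 101 higher and 65 lower. The genes nearest to that limit were Tmem150c and C3 at 1.03 and 1.04 inside it, and LOC103690064 and Itga1 at 0.999 and 0.994 outside it. At this level the median difference was 1.30 for the higher and -1.20 for the lower genes, little beyond the selection limit. Among these, at least a 4-fold difference was seen for 19 higher and 6 lower genes. In 11 genes the mean FPKM reached 100, 7 of them higher in M-SCs. FPKM is scaled by length, so a short RNA can reach 1 with few reads. Small nuclear and nucleolar RNAs made up 10 of the 73 lower genes. Among them U6 had 4, 2 and 2 reads in M-SCs and 13, 13 and 17 in SCs.

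**Figure D1:**
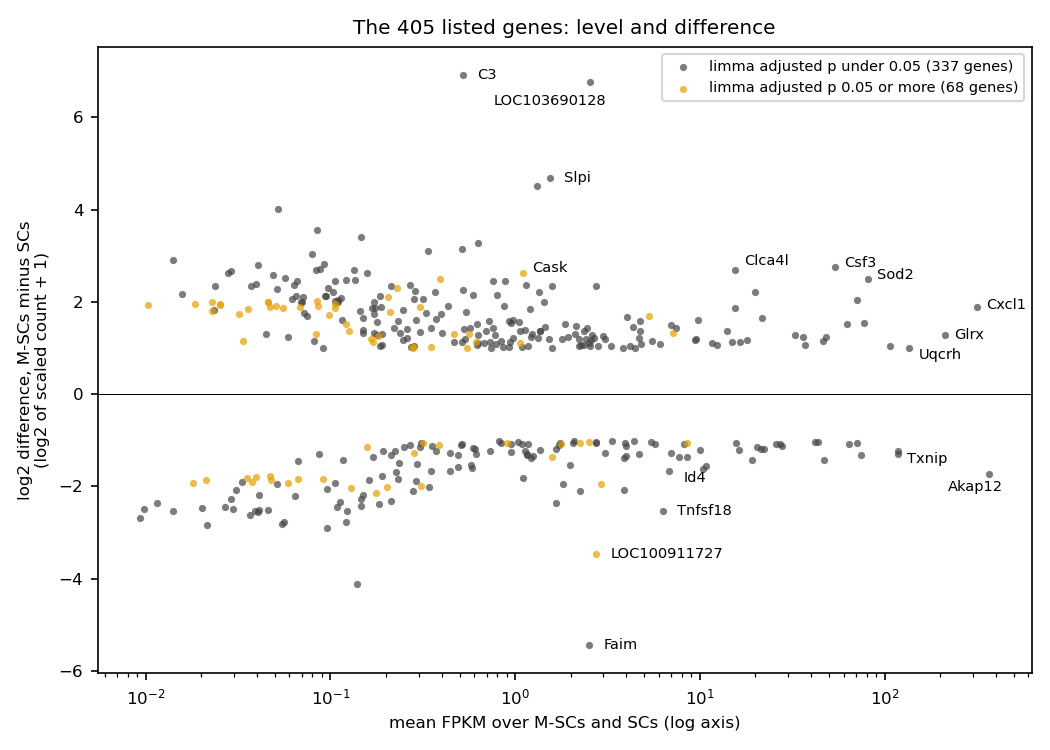
Log2 difference (M-SCs minus SCs, vertical axis) against the mean FPKM over both groups (log axis) for the 405 listed genes, dark where limma's adjusted p was under 0.05 (337 genes) and orange where it was not (68). The empty band around 0 is the authors' selection; large differences at high level are those of Cxcl1, Sod2, Csf3 and Akap12, and LOC100911727 and Cask had reads in 1 library only.

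Chemokines and granulocyte colony-stimulating factor (G-CSF) were among the largest increases. Of a 26-gene list of chemokines and colony-stimulating factors 7 were listed, 6 higher and 1 lower, and all 7 passed limma's test. Their median difference was 1.89, against 1.13 over all listed genes. All 7 reached a mean FPKM of 1. Taken over all listed rows, 60.7% were higher and 83.2% passed.

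Cxcl1, a ligand of the neutrophil receptor CXCR2, had scaled counts of 14277, 16110 and 14874 in the M-SCs libraries and 4185, 3974 and 4007 in the SCs libraries. Every M-SCs library lay more than 3-fold above every SCs library. Its FPKM was 501 ± 29.0 (SD, n = 3) against 135 ± 3.62, the highest level of any gene that rose, and its difference was 1.89 (SE 0.05, limma adjusted p = 1.17e-08). Both related ligands of the list rose as well. Cxcl3 stood at 5082, 6236 and 4989 in M-SCs and at 1316, 1295 and 1323 in SCs, a difference of 2.04 (SE 0.08). Cxcl6 stood at 1622, 1817 and 1736 against 359, 398 and 364, a difference of 2.20 (SE 0.08). In both genes the groups lay far apart beside the spread within each.

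Csf3, the gene of G-CSF, gave 3774, 4192 and 3928 in M-SCs and 635, 538 and 593 in SCs. The mean was 6.74-fold higher, with a difference of 2.75 (SE 0.08, limma adjusted p = 1.25e-08). Among the ligands that draw monocytes, Ccl2 gave 3117, 3267 and 2944 against 1140, 1028 and 1045, a difference of 1.54 (SE 0.06). Ccl7, a close relative of Ccl2, was far lower in level, with 47.5, 49.1 and 49.9 against 20.4, 12.4 and 27.8 (difference 1.30, SE 0.34). It no longer passed with equal library medians (limma adjusted p = 0.080). Ccl20, the ligand of CCR6, went the other way, with 20.5, 16.7 and 16.4 in M-SCs and 46.2, 42.8 and 51.4 in SCs, a difference of -1.34 (SE 0.28). Ccl7 and Ccl20 lie outside the rule for named genes and are given to complete the list.

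**Figure D2:**
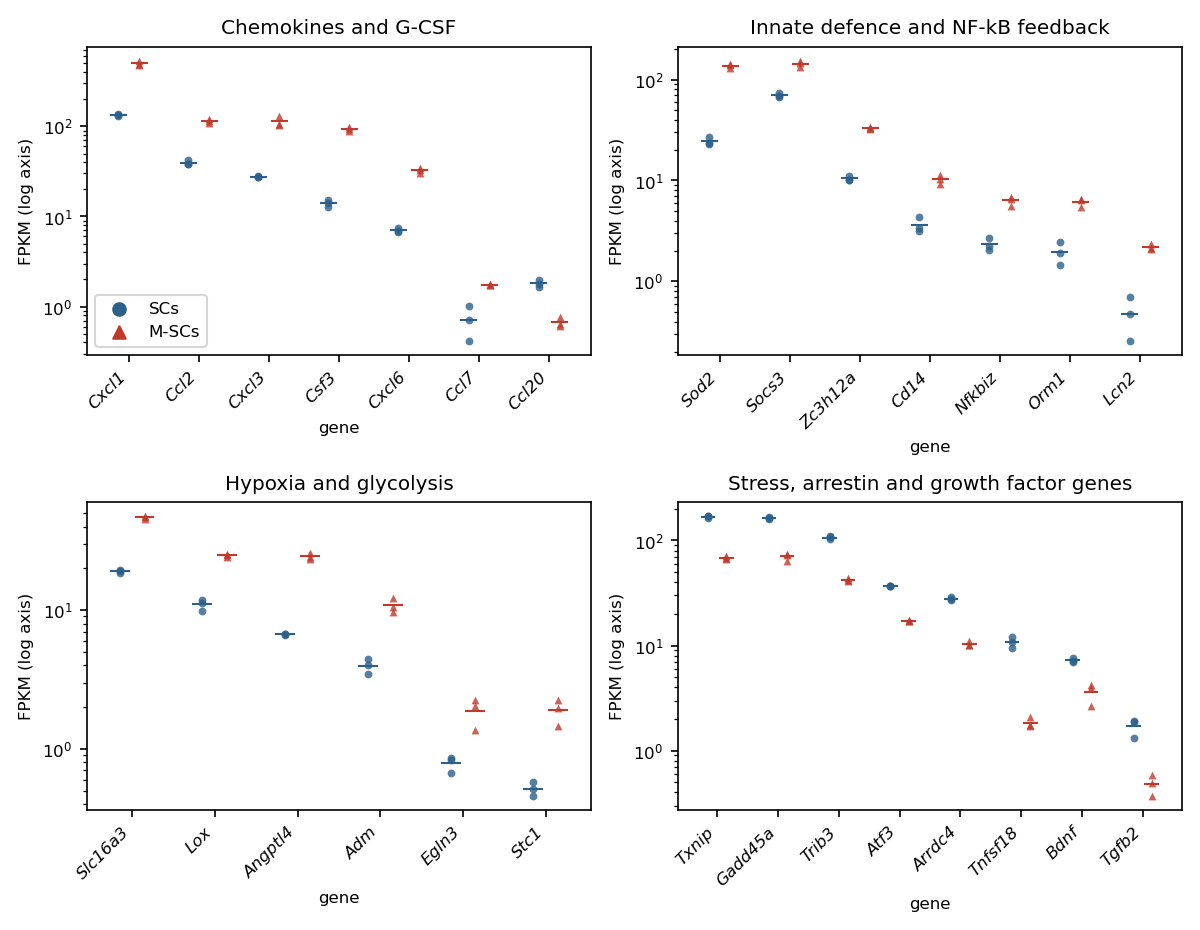
FPKM (log axes) of each library for members of 4 groups of genes, SCs as circles and M-SCs as triangles, with bars at the group means. Except for Ccl20, the first 3 panels show M-SCs above SCs without overlap, from Lcn2 at 0.477 in SCs to Cxcl1 at 501 in M-SCs; the last panel shows the reverse, from Txnip at 168 in SCs to Tgfb2 at 0.484 in M-SCs.

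Of 34 genes in a list of acute-phase, complement and innate defence genes 7 were listed, and all 7 were higher and passed the test, with a median difference of 2.24. Over all listed rows 60.7% were higher and 83.2% passed, and the other genes of the list have no value here. The levels of these 7 spanned a wide range, from Sod2 down to Ptx3.

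Sod2, the manganese superoxide dismutase of mitochondria and a classical NF-kB target, gave 9553, 8837 and 9293 in M-SCs and 1569, 1529 and 1826 in SCs. The difference was 2.49 (SE 0.07, limma adjusted p = 1.26e-08), and the FPKM was 137 ± 5.90 against 24.4 ± 2.45. Cd14, a co-receptor for bacterial lipopolysaccharide, gave 512, 631 and 567 against 243, 187 and 174 (difference 1.51, SE 0.14). Cd14 was the sole listed gene of a 26-gene list of macrophage and leukocyte markers.

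C3, the central complement component, had 553 reads in M-SCs and 2 in SCs, which is 275 times as many at equal depth (exact 95% interval 75.7 to 2275, counting error only). Slpi, a secreted protease inhibitor of mucosal defence, gave 104, 80.4 and 62.0 in M-SCs and 1.78, 10.5 and 0 in SCs, a difference of 4.68 (SE 0.80). Both genes were nearly silent in the control libraries, so the size of their differences depends on few reads. Lcn2, the iron-siderophore binding protein lipocalin, gave 62.4, 69.2 and 61.1 against 14.2, 7.61 and 20.3 (difference 2.21, SE 0.38). The remaining 2 members, Orm1 and Ptx3, differed by 1.67 and 2.24. Ptx3 missed the threshold without M-SCs replicate 1 (limma adjusted p = 0.060), the library with its highest value.

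Of 22 genes in a list of NF-kB feedback and regulators 3 were listed, all higher and all past the test, with a median difference of 1.65. The shares over all listed rows were 60.7% higher and 83.2% past the test, and the other genes of this list have no value here. Zc3h12a, the ribonuclease Regnase-1 that degrades cytokine mRNAs, gave 3065, 3141 and 2965 in M-SCs and 947, 1017 and 946 in SCs. Its difference was 1.65 (SE 0.06, limma adjusted p = 3.60e-08). Nfkbiz, an atypical IkB protein that acts in the nucleus on secondary response genes, gave 899, 744 and 872 against 273, 297 and 354 (difference 1.45, SE 0.12). Tnip3, an A20-binding inhibitor, was at a low level and differed by 2.68. Socs3, the feedback inhibitor of cytokine signaling through STAT3, gave 3747, 4318 and 4092 against 1893, 1942 and 2066 (difference 1.04, SE 0.06). Socs3 reached an FPKM of 144 ± 9.73 in M-SCs, among the 11 genes over 100.

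In the authors' own KEGG annotation, which covers 149 of the 405 rows, 11 pathways had at least 8 listed genes. The IL-17 pathway had 8 higher and 1 lower, the TNF pathway 7 and 1, the chemokine pathway 9 and 1 and the NOD-like receptor pathway 7 and 1. Fgr in the chemokine pathway and Mfn2 in the NOD-like receptor pathway were higher but did not pass limma's test. The pathways share genes such as Cxcl1 and Ccl2, and over all listed rows 60.7% were higher and 83.2% passed. Neuroactive ligand-receptor interaction was the one of the 11 with more lower than higher genes, 6 against 4, of which 6 and 3 passed. The largest, cytokine-cytokine receptor interaction, had 13 higher and 7 lower, of which 11 and 7 passed. The rest of the 11 were less one-sided than the IL-17, TNF, chemokine and NOD-like receptor pathways. Pathways in cancer had 11 higher and 5 lower, PI3K-Akt signaling 8 and 5 and MAPK signaling 6 and 5. Hematopoietic cell lineage had 6 and 2 and Jak-STAT signaling 5 and 3.

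Genes of the hypoxia response and glycolysis were higher in every listed case. Of 44 genes in the list 7 were listed, all higher and all past the test, with a median difference of 1.38. Among all listed rows 60.7% were higher and 83.2% passed, and the rest of this list has no value here. The glycolytic enzymes of the list were not among the 7, which are secreted factors, a transporter and regulators. Adm, Angptl4, Ankrd37, Egln3, Lox, Slc16a3 and Stc1 make up the 7. Ankrd37 passed in 1 of 6 fits that left out 1 library and not with equal library medians (limma adjusted p = 0.16).

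Slc16a3, the lactate exporter MCT4, gave 3173, 3285 and 3319 in M-SCs and 1368, 1348 and 1284 in SCs. The difference was 1.29 (SE 0.05, limma adjusted p = 7.15e-08), and its FPKM of 46.6 ± 1.05 in M-SCs was the highest of the 7. Lox, the enzyme that cross-links collagen and elastin, gave 3783, 4007 and 3922 against 1558, 1755 and 1856 (difference 1.18, SE 0.07). Angptl4, a secreted inhibitor of lipoprotein lipase, gave 1484, 1453 and 1574 against 414, 408 and 412 (difference 1.87, SE 0.07). In each of the 3 the libraries of a group were within a narrow range and the groups lay apart. Adm, the vasodilator peptide adrenomedullin, gave 477, 554 and 440 against 182, 202 and 155 (difference 1.44, SE 0.14). Stc1, the secreted glycoprotein stanniocalcin, gave 281, 247 and 183 against 64.8, 57.1 and 71.7 (difference 1.85, SE 0.19). Egln3, a prolyl hydroxylase that marks hypoxia-inducible factors for decay, differed by 1.22.

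Neurotrophic, growth and angiogenic factors split. Of 54 genes 4 were listed, 2 higher and 2 lower, all past the test. Of all listed rows, 60.7% were higher and 83.2% passed. Angpt1, the ligand of the endothelial receptor TIE2, rose, with 284, 277 and 288 in M-SCs and 41.7, 59.0 and 66.4 in SCs (difference 2.35, SE 0.19). Bdnf, the neurotrophin that signals through TrkB, fell, with 826, 530 and 787 against 1387, 1414 and 1492 (difference -1.03, SE 0.15, limma adjusted p = 4.12e-04). M-SCs replicate 2 was the lowest of the 3 treated values, and no M-SCs library reached the SCs range. Igfbp4, a binding protein that limits insulin-like growth factors, gave 210, 171 and 243 against 415, 371 and 473 (difference -1.02). The fourth of the 4 was Angptl4.

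Among the most abundant genes that rose were Glrx and Uqcrh, of redox and mitochondrial metabolism. Glrx, the glutaredoxin that reduces glutathionylated proteins, gave 12375, 13006 and 12212 in M-SCs and 5404, 5182 and 4980 in SCs. Its FPKM of 300 ± 8.78 against 124 ± 4.87 was second only to that of Cxcl1 among the genes that rose, with a difference of 1.27 (SE 0.04). Uqcrh, a small subunit of respiratory complex III, gave 3054, 3267 and 3327 against 1655, 1650 and 1515. Its difference of 1.0 was the smallest in size of all listed genes. Cpt1a, which imports long-chain fatty acids into mitochondria, gave 2142, 2015 and 2044 against 682, 691 and 659 (difference 1.61, SE 0.06). Of 55 genes in a list of lipid and cholesterol metabolism 4 were listed, where 60.7% of all listed rows were higher and 83.2% passed. The 3 that were higher and past the test were Angptl4, Cpt1a and Ptgs2. Alox12, at scaled counts of 4.66, 4.46 and 0 in M-SCs, did not pass (limma adjusted p = 0.055).

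Solute carriers, taken by name prefix, had 14 listed genes, 10 higher and 4 lower, and 12 passed. These counts stand beside 60.7% higher and 83.2% past the test over all listed rows. Slc6a6, the taurine transporter, gave 1827, 1817 and 1715 in M-SCs and 625, 746 and 719 in SCs (difference 1.36, SE 0.08). Slc30a1, which exports zinc from the cell, fell from 990, 1118 and 1049 in SCs to 350, 415 and 459 in M-SCs (difference -1.37, SE 0.11). Slc16a6, a monocarboxylate transporter family member, fell as well (difference -1.53), against the increase of Slc16a3 of the same family.

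Ion channel genes by name prefix had 8 listed members, 5 higher and 3 lower, all past the test. For all listed rows the shares were 60.7% higher and 83.2% past the test. Of the 5 higher members, 2 are Clca genes. Their products are secreted or membrane-bound regulators of chloride currents and not channels themselves. Clca4l rose from 385, 384 and 396 in SCs to 2556, 2615 and 2387 in M-SCs, a 6.49-fold increase (difference 2.69, SE 0.07). Clca4l has close relatives in the genome, among them the listed Clca4, so its value is uncertain to the extent that the authors' counting divided shared reads, a step not described in the labels. Cacna1i, a T-type calcium channel subunit, gave 362, 346 and 405 against 133, 168 and 121 (difference 1.40). The other members had a mean FPKM under 1 in both groups, and Clca4 and Scn1a lost their call without 1 library in at least 2 of 6 fits.

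**Figure D3:**
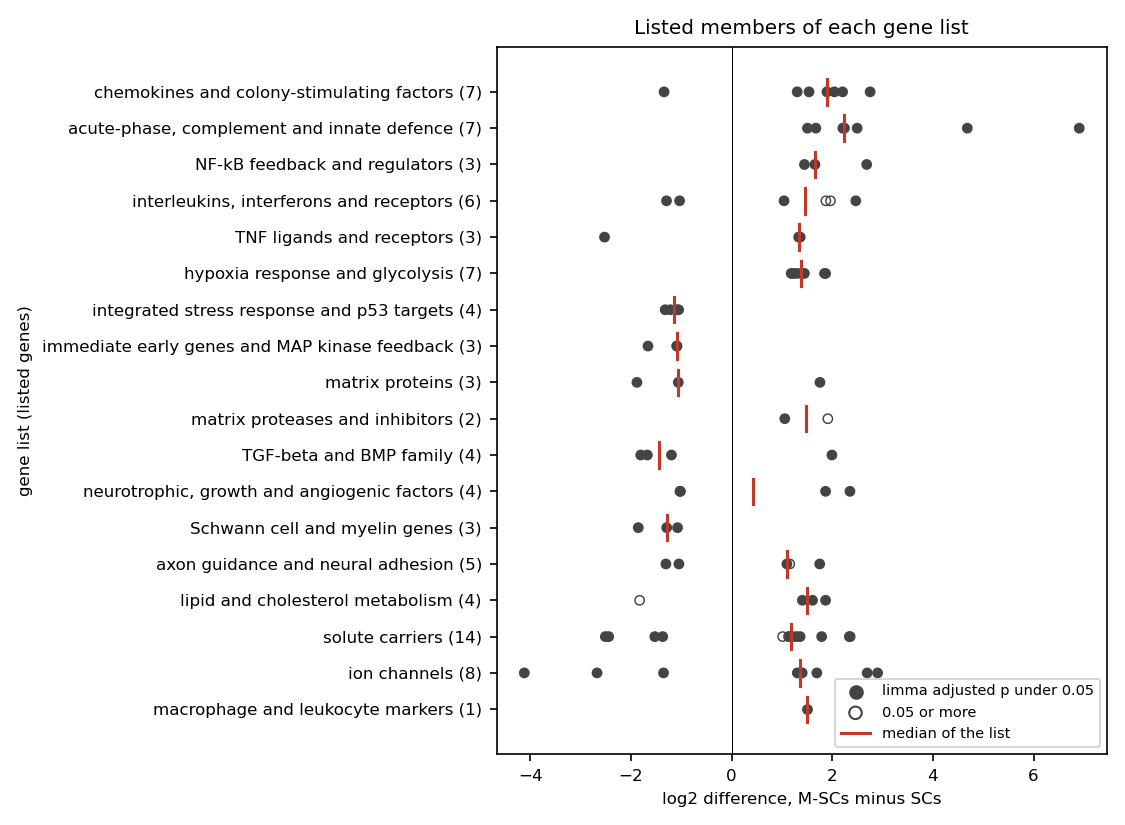
Log2 difference (M-SCs minus SCs) of each listed member of 18 gene lists, filled where limma's adjusted p was under 0.05 and open otherwise, with a bar at each list's median; the number of listed genes stands in brackets. All listed members of the acute-phase, NF-kB feedback and hypoxia lists lie to the right, and all those of the stress response, immediate early and Schwann cell lists to the left.

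Among the decreases, the scaffold gene Akap12 was the most abundant. Akap12, which tethers protein kinase A and C to the cell periphery, gave 36936, 37008 and 36611 in M-SCs and 117315, 123070 and 123876 in SCs. The mean was 3.29-fold lower in M-SCs, a difference of -1.72 (SE 0.03, limma adjusted p = 2.91e-10), and its FPKM of 171 ± 0.742 against 565 ± 17.5 made it the most abundant listed gene in SCs. Tnfsf18, the ligand of the costimulatory receptor GITR, had the largest decrease that the rule for named genes allowed, with 118, 117 and 140 in M-SCs and 646, 728 and 808 in SCs (difference -2.53, SE 0.12, limma adjusted p = 2.45e-07). Of 32 TNF ligands and receptors 3 were listed and passed, beside 83.2% passing and 60.7% higher over all listed rows. The other 2 were Tnfsf15 and Tnfsf10, higher by 1.36 and 1.33. Both of these missed the threshold with equal library medians (limma adjusted p = 0.052 and 0.080).

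A pair of related arrestin-domain genes fell by like amounts. Txnip, which binds thioredoxin and restrains glucose uptake, gave 6060, 6439 and 5942 in M-SCs and 14783, 15246 and 15253 in SCs. Its difference was -1.30 (SE 0.04, limma adjusted p = 1.87e-08), and its FPKM was 68.4 ± 2.60 against 168 ± 3.23. Arrdc4, a paralog with the same link to glucose uptake, gave 1534, 1426 and 1424 against 3903, 4040 and 3803 (difference -1.42, SE 0.05). In both genes the M-SCs libraries lay far below the lowest SCs library.

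Stress response genes were lower in every listed case. Of 38 genes in a list of the integrated stress response and p53 targets 4 were listed, all lower and all past the test, with a median of -1.16. Over all listed rows 39.3% were lower and 83.2% passed, and the other genes of this list have no value here. Trib3, a pseudokinase induced by ATF4 and CHOP, gave 2760, 2622 and 2666 in M-SCs and 6957, 6449 and 6719 in SCs (difference -1.32, SE 0.05). Gadd45a, a growth arrest and DNA repair protein, gave 2584, 2958 and 3028 against 6811, 6503 and 6624 (difference -1.22, SE 0.06). Atf3, a stress-induced transcription factor that marks injured Schwann cells and neurons, gave 1642, 1650 and 1636 against 3538, 3464 and 3498 (difference -1.09, SE 0.04). The groups of all 3 were well apart. Vldlr, a lipoprotein and reelin receptor, gave 122, 145 and 112 against 244, 255 and 289.

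Atf3 also stands in a 43-gene list of immediate early genes, of which 3 were listed, all lower and past the test (median -1.09). Across all listed rows 39.3% were lower and 83.2% passed, and the other genes of this list have no value here. Nr4a1, an orphan nuclear receptor of the immediate early class, gave 453, 462 and 457 in M-SCs and 1009, 989 and 923 in SCs (difference -1.09, SE 0.07). Arc, known as an activity-regulated gene of neurons, was under an FPKM of 1 and differed by -1.66, and without M-SCs replicate 2 it missed the threshold (limma adjusted p = 0.051). Clu, a secreted chaperone, fell from 5652, 5892 and 5996 in SCs to 2646, 3046 and 2681 in M-SCs (difference -1.07, SE 0.06).

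The TGF-beta and BMP list had 4 of 49 genes listed, 3 lower and 1 higher, all past the test, with a median of -1.44. As to all listed rows, 39.3% were lower and 83.2% passed, and the other genes of this list have no value here. Tgfb2, a ligand of the TGF-beta receptors, gave 83.9, 52.5 and 69.7 in M-SCs and 188, 266 and 272 in SCs (difference -1.81, SE 0.22, limma adjusted p = 1.20e-04). Inhba, the subunit of activin A, gave 96.9, 61.4 and 95.6 against 146, 226 and 212 (difference -1.20). Id4, an inhibitor of basic helix-loop-helix factors and a target of BMP signaling, gave 142, 191 and 183 against 486, 534 and 628 (difference -1.68, SE 0.15). These 3 genes were lower in each M-SCs library than in any SCs library. Bmp2 was the higher one, at a few reads per library with overlapping groups, and it passed in 1 of 6 fits that left out 1 library.

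Other decreases were those of Flrt3, Prickle1 and Ramp1. Flrt3, a membrane protein that binds Unc5 and latrophilin receptors, gave 3165, 3074 and 2832 in M-SCs and 7644, 8602 and 8308 in SCs (difference -1.44, SE 0.06). Prickle1, of the planar cell polarity pathway, gave 830, 817 and 766 against 2302, 2321 and 2471 (difference -1.55, SE 0.06). Ramp1, which forms the receptor for the neuropeptide CGRP together with a calcitonin receptor-like protein, gave 15.8, 35.7 and 11.2 against 92.3, 78.0 and 57.8 (difference -1.95, SE 0.42). The axon guidance and neural adhesion list had 5 of 82 genes listed, 3 higher and 2 lower, of which 4 passed, 2 in each direction. Set beside this, 60.7% of all listed rows were higher and 83.2% passed. Efna5, a membrane-bound ephrin ligand, rose by 1.1 and Sema3d, a secreted semaphorin, fell by 1.05.

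**Figure D4:**
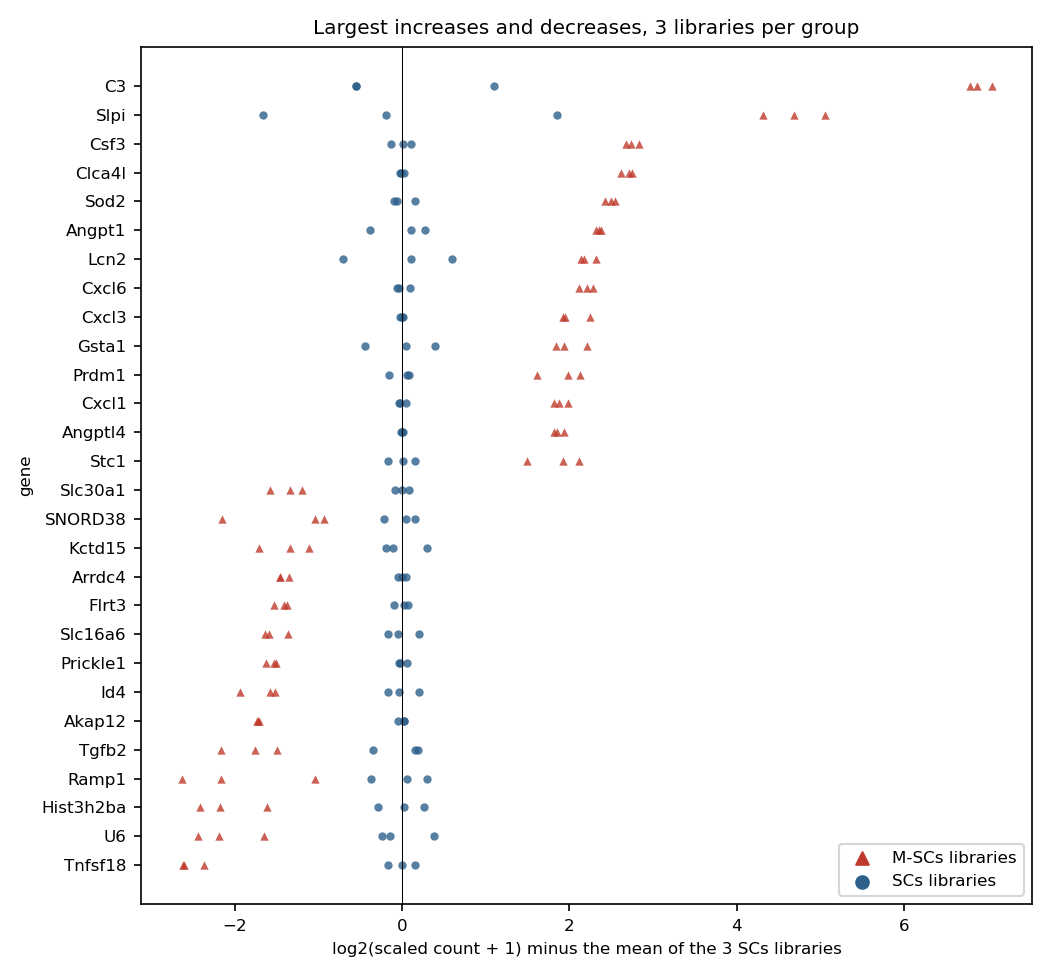
The 14 largest increases and 14 largest decreases among genes past limma's test with a group mean FPKM of 1 or more, no overlap between groups and no predicted symbol, as log2(scaled count + 1) of each library minus the mean of the 3 SCs libraries, triangles for M-SCs and circles for SCs. Csf3, Clca4l and Angptl4 are tight in both groups, while C3, Slpi and Ramp1 spread over more than 1 unit in a group. U6 and SNORD38 are small RNAs with no more than 17 reads in any library.

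Of 42 genes in a list of Schwann cell and myelin genes 3 were listed, all lower and past the test (median -1.29). In all listed rows together 39.3% were lower and 83.2% passed, and the other genes of this list have no value here. Prx, the periaxin of the myelinating Schwann cell membrane, gave 423, 359 and 442 in M-SCs and 1055, 1052 and 893 in SCs (difference -1.29, SE 0.11, limma adjusted p = 9.05e-06). Sox11, a transcription factor of neural and repair programs that the series title names, had 13 reads over the M-SCs libraries and 59 over the SCs libraries, and it passed (difference -1.86, SE 0.53, limma adjusted p = 0.012). Other defining markers such as Sox10 and S100b were not among the rows analysed here, so the labelled cell type could be checked against few markers.

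A list of interleukins, interferons and their receptors went both ways. Of its 50 genes 6 were listed, 4 higher and 2 lower, and 4 passed, 2 in each direction. The higher 2 that passed were Il7 and Socs3, and Socs3, described above, is a feedback inhibitor and no interleukin or receptor. Il9r, an interleukin receptor outside the list, differed by -2.31 and passed as well. Il7 and Il22ra2, the other genes of the series title, were both at a few reads. Il7, a lymphocyte survival cytokine, gave 3.73, 13.4 and 9.47 in M-SCs and 0, 0 and 3.21 in SCs (difference 2.47, SE 0.75, limma adjusted p = 0.017). Its call was lost without M-SCs replicate 2, SCs replicate 1 or SCs replicate 2 (limma adjusted p from 0.054 to 0.063). Il22ra2, a soluble decoy receptor for IL-22, gave 2.80, 32.4 and 12.1 against 6.21, 2.85 and 0, so the groups overlapped and it did not pass (limma adjusted p = 0.079). Il11, a cytokine of the IL-6 family, fell by 1.04 and Il10, an anti-inflammatory cytokine, by 1.30, both with an FPKM under 2 in SCs.

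Other lists held few rows, to be read beside 60.7% higher and 83.2% past the test over all listed rows. Matrix proteins had 3 of 68 genes listed, all past the test, with Vcan higher and Ogn and Omd lower. Matrix proteases and inhibitors had 2 of 53, both higher, of which Serpinb2, an inhibitor of urokinase, passed (difference 1.06) and Mmp23 did not (limma adjusted p = 0.078). No gene of the lists for the G1/S transition and DNA replication (42 genes), G2/M and mitosis (30 genes), or interferon-stimulated genes and antigen presentation (50 genes) was among the rows analysed here, which does not show them unchanged. The same held for 20 fibroblast and mesenchymal stem cell markers and 18 endothelial and neuronal markers. Whether cells or RNA of the MenSC cultures were present was not tested.

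Below an FPKM of 1 in both groups stood 227 genes, of which 171 passed. Their reads were few, and in 100 of the 405 genes even the deepest library held fewer than 20. Genes with 0 reads in all SCs libraries allow only a bound, computed against a floor of 3 reads over the group and without the counting error of the M-SCs reads. Ccr1, a receptor of inflammatory CC chemokines, had 34 reads in M-SCs and was at least 11.3-fold higher. LOC100911545, annotated as alpha-2-macroglobulin-like, had 49 reads and was at least 16.2-fold higher. LOC103690128, annotated as smoothelin-like, had 341 reads in M-SCs and was at least 113-fold higher. Its scaled counts in the E-SCs libraries were 93.0, 0 and 96.8, so it was listed at 0 in 1 library of a group in which the others were near 100.

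Such switching between 0 and many reads was seen in other listed genes, chosen here after their values were seen. There were 39 genes at 0 in part of a group that had 8 or more reads in another library of it. In 4 genes all reads came from 1 of the 6 libraries. LOC100911727, annotated as DNA ligase 1-like, had 1239 reads in SCs replicate 3, Cask had 207 and Mfn2 158 in M-SCs replicate 2, and Galr2 had 127 in M-SCs replicate 1. In the authors' deposited table all 4 were below an FDR of 0.05, from 7.79e-07 for Galr2 to 2.15e-09 for LOC100911727, and 0 of the 4 passed limma's test, unadjusted or adjusted (adjusted p from 0.19 to 0.20). Faim, an inhibitor of Fas-induced cell death, gave scaled counts of 0 in all M-SCs libraries and 275, 0 and 292 in SCs. Its groups overlapped, and its call (limma adjusted p = 0.029) held in 1 of 6 fits that left out 1 library. In the E-SCs libraries Cask stood at 266, 0 and 248 and Faim at 260, 0 and 0.

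**Figure D5:**
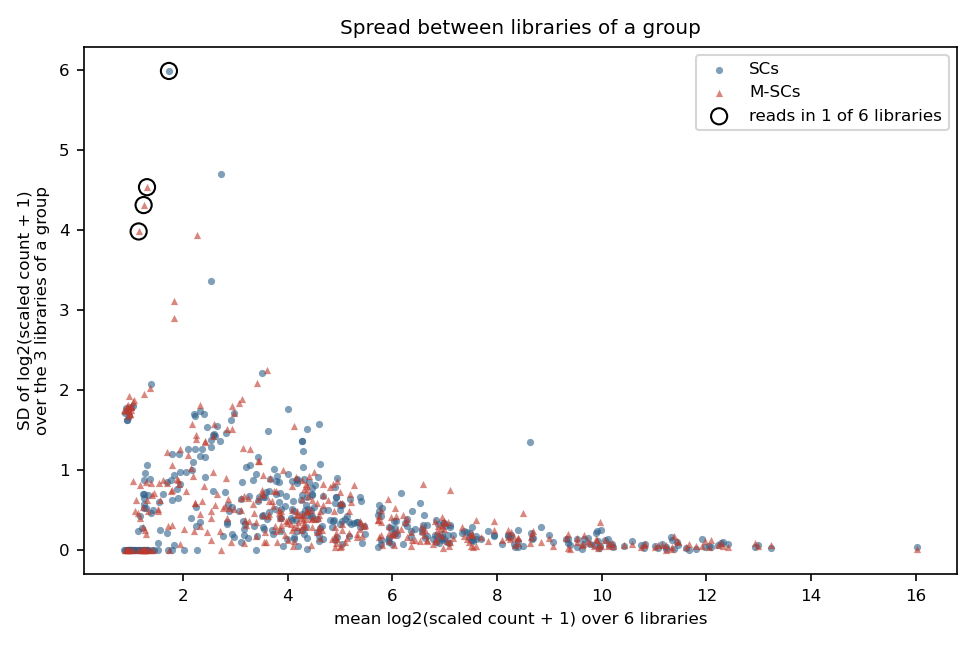
SD of log2(scaled count + 1) over the 3 libraries of a group (vertical axis) against the mean over the 6 libraries, for 405 genes in SCs (circles) and M-SCs (triangles). The 4 ringed points are the genes with reads in 1 of 6 libraries; at a mean of 9 or more the median SD was 0.063 in M-SCs and 0.068 in SCs.

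Precision followed the level. For 54 genes with a mean log2 value of at least 9, the median SD between libraries was 0.063 in M-SCs and 0.068 in SCs. For the 120 genes under 3, it was 0.70 and 0.55. Reads over the listed genes ran from 196958 to 293374 per library, and relative depth from 0.771 in M-SCs replicate 2 to 1 in M-SCs replicate 3. Library totals are unknown, since the table holds selected genes.

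E-SCs values were known for 251 of the 405 genes, those also listed in a table with E-SCs, and for 57 of the 65 named genes. These tables share the M-SCs or the SCs libraries with the comparison described here, so the values are set side by side with no test. Of the 251 genes 222 stand in the table of E-SCs against M-SCs, which the authors selected for a difference between those groups. Of 32 named genes higher in M-SCs, the E-SCs mean was below both other means in 23 and between them in 9. Of 25 lower in M-SCs, it was above both in 15 and between them in 10. These counts take any distance from the SCs mean, however small. Clca4l, counted as below both, stood at 386 ± 50.4 in E-SCs and 388 in SCs. Vldlr, counted as above both, stood at 294 ± 55.4 and 263. Csf3 stood at 478 ± 12.1 (SD, n = 3) in E-SCs, beside 3965 in M-SCs and 588 in SCs. Zc3h12a stood at 782 ± 45.3, beside 3057 and 970. Slc16a3 stood at 765 ± 53.1, beside 3259 and 1333. Cxcl3, between the other groups, stood at 1373 ± 177, beside 5436 and 1312. Among genes lower in M-SCs, Akap12 stood at 181661 ± 5628, beside 36852 in M-SCs and 121420 in SCs. Prickle1 stood at 2923 ± 154, beside 805 and 2365, and Gadd45a at 8321 ± 179, beside 2856 and 6646. Arrdc4 at 3248 ± 203 and Prx at 951 ± 80.9 lay between M-SCs (1462 and 408) and SCs (3915 and 1000), nearer to SCs.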

How the data were processed

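Per the labels' protocols, RNA was isolated with Trizol, mRNA enriched on oligo(dT) beads and sequenced in paired ends on an Illumina HiSeq. HISAT2, StringTie and mm10, a mouse build, appear without versions in the submitters' processing notes; the identifiers in the tables are rat, so no coordinates are given. The values deposited by the authors are log2(scaled count + 1) per library, from the values themselves, and FPKM; the deposited p-values and FDR come from a test of the authors that no source used here names. In each library 1 read had a fixed worth (100% of values up to 1000 reads were whole within 0.01), which gave reads and relative depth. M-SCs and SCs values were identical in every table that holds them.

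The test was limma (3.58.1, trended variance, R 4.3.3) on 3 against 3 libraries, Benjamini-Hochberg adjusted over 405 rows at 0.05; it was tested on simulated data. Python 3.11.15 with numpy 2.4.6, pandas 2.3.3, scipy 1.17.1 and matplotlib 3.10.9 made summaries and plots. Members, lists and tests were chosen with earlier results of these data known. Named genes reached a group mean FPKM of 1, with an adjusted p under 0.05, no overlap between groups and no predicted symbol (rat name patterns such as Rn60 were added later): the 14 largest increases and decreases, the 6 most abundant in each direction and up to 4 per gene list, plus the series title's genes and genes at 0 reads in a whole group with a scaled count of at least 8 in each library of the other, 65 in all. PCR copies are not independent, so intervals and floors hold for counting error alone. Alternatives changed the trend, scaling, pseudocount, measure, filter, block and libraries. No 2 libraries of a group agreed within sampling noise. Some list members are counted but not reported singly here.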

Additional observations from a re-analysis of the deposited data

How the results depend on the processing

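Of the 65 named genes 59 were chosen for passing the test without overlap in these same libraries, so their calls were likely to hold. Of 845 alternative fits of the 65 named genes, 835 kept direction and side of the threshold, 10 lost the call and none reversed. The 10 were Il7 without 1 of 3 libraries, Tnfsf15 with equal library medians, and SNORD38 with the replicate block and without M-SCs replicate 2 or 3 or SCs replicate 1, 2 or 3 (limma adjusted p from 0.051 to 0.083). The number of genes past limma's test was 337, and 311 without a trend, 289 with equal library medians, 328 with voom on recovered reads, 307 and 348 with pseudocounts of 0.1 and 8, and 304 on log2(FPKM + 1). With equal library medians the higher genes numbered 135 and not 204. A filter at a mean FPKM of 1 left 178 genes, of which 166 passed, 101 higher and 65 lower. A filter at a mean log2 value of 5 left 165, and all 165 passed, 99 higher and 66 lower; fewer genes were tested. Leaving out 1 library gave 275 to 293 calls, 160 to 176 higher and 108 to 117 lower, and at an FPKM of at least 1 it gave 156 to 161; such fits have less power, and 236 of the 337 genes passed in all 6. Without genes at 0 in part of a group, a choice made after seeing the data like voom with recovered depth, 344 of 366 passed. Libraries with the same replicate number showed no shared deviation from their group means (correlations of -0.07, -0.04 and 0.02). Many of these selected genes have few reads, so the correlations cannot show that no pairing existed. The fit with the replicate block gave 338 calls, 318 of them shared with the fit without it. TMM scaling was not run, because it needs whole libraries. Low read numbers limit the genes under an FPKM of 1 and small RNAs above it. The absence of library totals leaves the scaling unchecked.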

Other observations

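Some further groupings of genes, chosen after their values were seen, are given as values only. Among genes of iron and metal handling were Tfrc, the transferrin receptor, with a difference of 1.24, Cp, the copper ferroxidase ceruloplasmin, with 1.24, and Slc39a8, an importer of zinc and manganese, with 1.15, all past limma's test, while the zinc exporter Slc30a1 fell by 1.37. Tfrc gave scaled counts of 8208, 7632 and 7810 in M-SCs and 3055, 3454 and 3484 in SCs, and Cp gave 8606, 8441 and 8107 against 3382, 3741 and 3494. Among enzymes that act on aldehydes, electrophiles and epoxides, differences went both ways, with Aldh3a1 at 5357, 5124 and 5442 against 1885, 1834 and 1814 (difference 1.52), Gsta1 at 2.0 and Mgst1 at 1.11, whereas Ephx1, at a few reads in M-SCs, differed by -2.11. Of genes known from inflammasome sensing, all at an FPKM under 1, Aim2 differed by 2.53, Casp1 by 2.26 and Nlrp3 by 1.74, but without 1 library Casp1 passed in 4 of 6 fits and Nlrp3 in 1 of 6.

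Small nuclear and nucleolar RNAs, which oligo(dT) selection is not made to capture, made up 12 rows, also chosen after their values were seen. Of these, 10 were lower and 2 higher in M-SCs, and 8 passed limma's test, 6 lower and 2 higher, while over all listed rows 83.2% passed. Of the 8, SNORA8 and SNORD38 kept the call in 1 of 6 fits that left out 1 library, SNORD88 in 2 of 6 and SNORA73 in 4 of 6. U6 had 4, 2 and 2 reads in M-SCs and 13, 13 and 17 in SCs, and a 7SK copy had 19, 10 and 11 against 84, 24 and 10, with overlapping groups and no pass (limma adjusted p = 0.15). The efficiency of the bead selection was not measured in these files, and its part in these values was not tested.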
